A study of Homo sapiens with 2 samples.

Results

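The genes described here build and guide the vesicles that move proteins between the endoplasmic reticulum (ER) and the Golgi. They are 46 genes of 21115 in the table, chosen by name: 15 genes of the COPII coat and its exit sites, 11 of the COPI coat and its ARF proteins, 12 cargo receptors and their partners, and 8 golgins and related tethers. Each name matched 1 row. RNA was sequenced from HCT116, a long-established line of human colorectal carcinoma cells, after 8 h with 1 µM CB-5083 in 1 library and with the solvent DMSO in the other. CB-5083 inhibits p97 (VCP), an ATPase that extracts ubiquitinated proteins from the ER membrane and other sites before the proteasome degrades them. The 2 libraries share the cell line, the medium and the treatment time. With 1 library per treatment no difference below has a replicate check, no p-value is given, and each interval covers counting error only.

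COPII is the coat of vesicles that leave the ER. The GTPase SAR1 recruits an inner layer of SEC23 and SEC24, of which SEC24 binds cargo, and an outer cage of SEC13 and SEC31 closes around it. COPI, or coatomer, is recruited by the GTPase ARF1 and carries escaped ER proteins and cargo receptors back from the Golgi. Cargo receptors of the TMED (p24) and LMAN families, and SURF4, link soluble cargo to the coats, and golgins are long coiled-coil proteins that catch arriving vesicles at the Golgi. The transcription factors XBP1 and ATF6 are known to raise some of these genes when misfolded proteins gather in the ER.

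Because many of these genes are known targets of ER stress factors, their promoters were searched for motifs of such factors. RefSeq promoter windows (GRCh38.p14), from 250 bases before to 50 bases after a transcript's start, were found for 39 of the 46 genes, and no window was used for ARF4, GOLGA4, GOLGA7, SEC24D, TMED4, TMED9 and USO1. The motif TGACGTGG, read on either strand and known as the unfolded protein response element that XBP1 and ATF6 bind, was in the windows of 11 of the 39 genes (28.2%). This compares with 99 of 7531 genes that passed the filter on low values and had a window (1.31%) and 253 of all 27305 genes with a window (0.927%). The 39 genes were not filtered on level, and both comparison groups include genes of the 39. The 12 sites in these 11 genes are shown because the motif was more frequent in these windows than in those of the table. Each is printed so that the motif reads TGACGTGG, in capitals, with 10 bases on each side.
ARF1, chr1:228082682-228082709, plus strand: ccggaggcgcTGACGTGGccgccgtcag
COPA, chr1:160343228-160343255, minus strand: agagggtcgcTGACGTGGaggcgtccga
COPB1, chr11:14499842-14499869, plus strand: agtccttggcTGACGTGGaagggggtgg
COPB2, chr3:139389633-139389660, plus strand: tcagactgacTGACGTGGaacttccggg
COPB2, chr3:139389826-139389853, plus strand: ctaagggccgTGACGTGGtgccgctgag
GBF1, chr10:102245527-102245554, minus strand: gtcagctcacTGACGTGGtaactagcct
GOLGA1, chr9:124941249-124941276, minus strand: ggccgctcgcTGACGTGGcgaactgggc
GOLGA5, chr14:92794116-92794143, minus strand: tgcgtgcgtgTGACGTGGctcgccgccg
SEC16A, chr9:136484708-136484735, plus strand: tcagtccggcTGACGTGGcaccagggcc
SEC16B, chr1:177984298-177984325, minus strand: tctgggcagcTGACGTGGcaacacagtt
SEC23A, chr14:39103222-39103249, minus strand: cccctcctctTGACGTGGcagaggcggc
SEC24A, chr5:134648596-134648623, plus strand: tgagagtcggTGACGTGGcggcgaggcc

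The motif began after the start in COPA, GBF1 and SEC16A. The COPB2 site nearer its start began at -3 from one annotated start and at 30 from another. In GOLGA1 the motif began at position -183. The base just before the motif was C at 8 of the 12 sites, G at 3 and T at 1, and the base just after it was C at 7, A at 3 and T at 2. The cargo receptors were the only class of the 4 with no such site found, but TMED4 and TMED9 of that class had no window to search. The motif was in 3 of the 10 genes past 2-fold that had a window and in 8 of the 29 others. These others include genes under the filter on low values, and no test of the motif against the response was made. Of the 525 genes past 2-fold higher in the whole table with a window, 18 held it (3.43%), and of the 325 past 2-fold lower, 2 (0.615%). The longer ER stress elements ERSE and ERSE-II, each with its exact consensus, and the ATF4-type motif TGATGCAAT were in none of the 39 genes' windows, against 12, 13 and 12 of the 7531 genes. The motif GTGACGT, which CREB3-type factors bind and which overlaps TGACGTGG where a G precedes it, was in 5 of 39 (12.8%) against 8.01% of the 7531. The short core CCACG, part of TGACGTGG read on the other strand, was in the windows of 36 of 39 genes (92.3%) against 58.3%. A match describes the letters of a window and is not evidence of binding.

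Levels are given in CPM, a gene's estimated count as a share of its library's total, which was scaled by TMM so that most genes lie near the same value in both libraries. The log2 ratio is that of (CB-5083 + 1) over (DMSO + 1) in CPM, and a gene was called higher or lower when it was at least 2-fold apart on this scale and reached 5 CPM in 1 library. Estimated counts summed to 29273684 with DMSO and 31997660 with CB-5083. Scaling by library totals instead of TMM moved the median log2 ratio of all genes from 0.04 to -0.28, so directions below are relative to that shift. Of the epithelial markers, EPCAM was at 433 and 501 CPM, KRT8 at 278 and 361, KRT18 at 292 and 495 and KRT19 at 47.2 and 67.4. CDH1, which encodes E-cadherin, was past 2-fold higher, at 66.7 and 243 CPM (3.65-fold, 3.48 to 3.83), while CDX2 was at 3.76 and 2.92 CPM and VIL1 was below 0.1 CPM. Of 12 markers of fibroblasts, leukocytes and endothelium, 11 were at or below 0.203 CPM in both libraries, and COL1A1 was at 2.52 and 3.48 CPM. COL1A2, DCN, LUM, PTPRC, CD3E and CDH5 were at 0 in both. RNA came from the whole culture, so fewer cells of a kind and less RNA per cell cannot be told apart.

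Of the 46 genes 42 passed the filter on low values, and 13 of these (31.0%) were higher with CB-5083, against 7.22% of all 9543 genes that passed it. None was lower, against 4.91% of all genes. At 1.5-fold, 26 of the 42 were higher, against 17.4% of all genes, and 1 was lower, against 12.5%. The median log2 ratio of the 44 genes with a mean of at least 1 CPM was 0.75, beside 0.04 for the 11964 such genes of the table. 42 of the 44 had a ratio above 0. With a mean of at least 10 CPM instead, the medians were 0.79 for these genes and 0.15 for all genes. Under library-total scaling 6 of the 42 were higher (14.3%, against 3.86% of all genes) and 1 was lower, the median was 0.41, and 36 of 44 ratios were above 0. In both scalings the median of these genes lay about as far above that of all genes, by 0.71 and by 0.68. A change of scaling moves every log2 ratio by nearly the same amount, so this likeness is no separate check. The summed level of the 46 genes was 5836 CPM in the DMSO library and 11429 CPM under CB-5083, both scaled by TMM. Without that scaling, their share of the estimated counts was 0.657% and 1.02%.

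**Figure D1:**
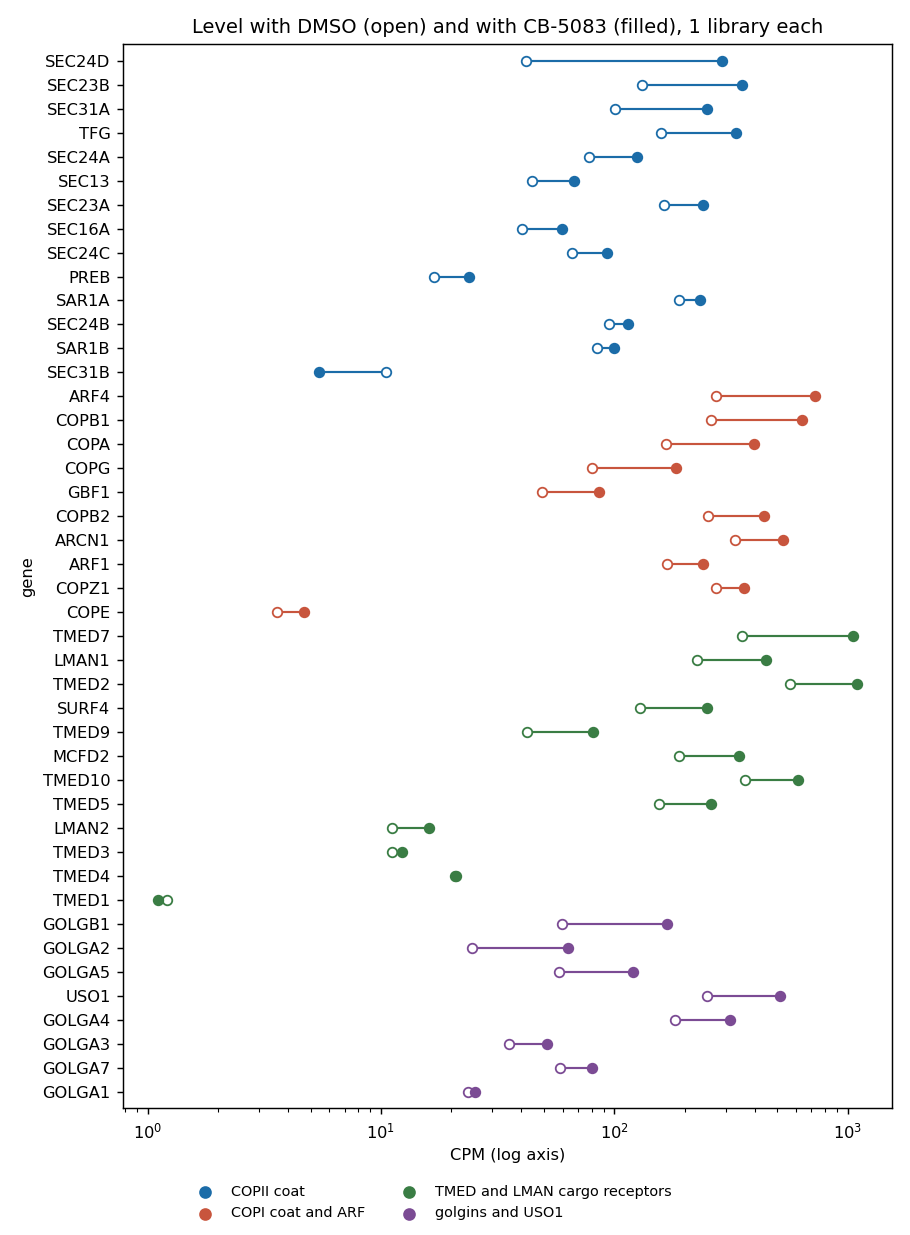
Level of the 44 genes with a mean of at least 1 CPM, in CPM on a log axis, by class. Open points are the DMSO library and filled points the CB-5083 library, and the filled point lies to the right in 42 of the 44.

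**Figure D2:**
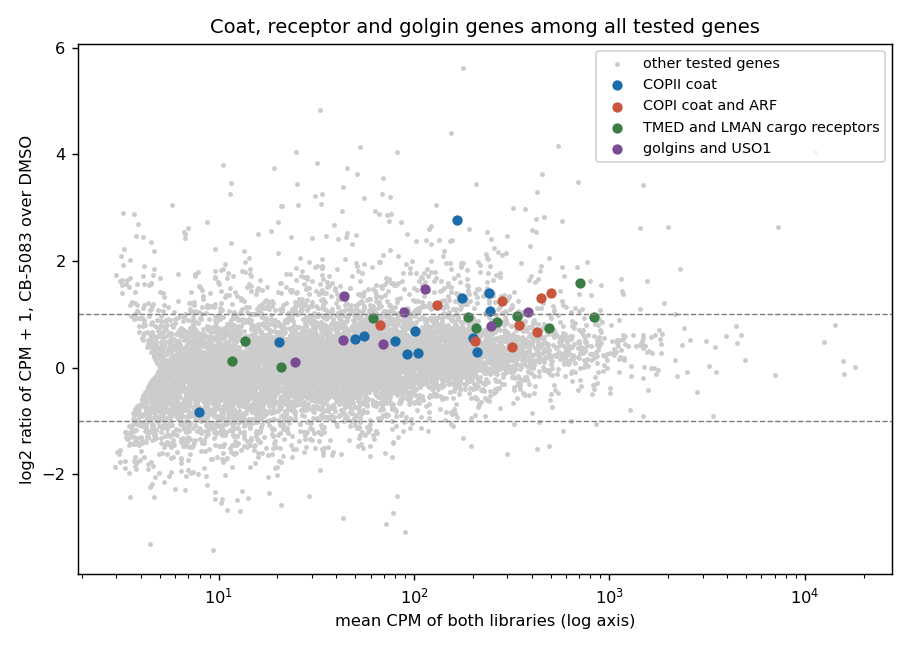
Log2 ratio of CB-5083 over DMSO against the mean CPM of both libraries on a log axis, for all 9543 genes that passed the filter, with the 42 coat, receptor and golgin genes coloured by class. Dashed lines mark 2-fold, and 13 of the coloured points lie above the upper line and none below the lower one.

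**Figure D3:**
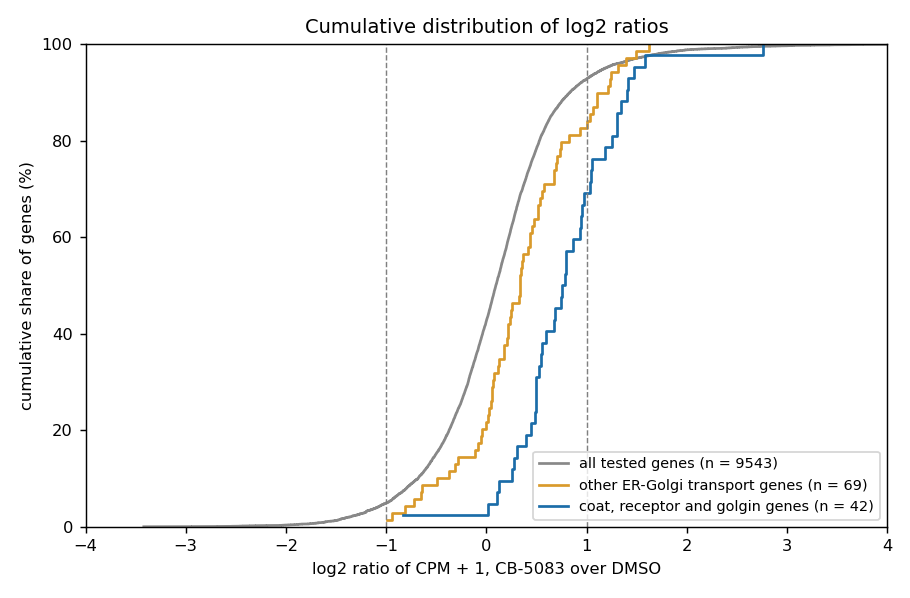
Cumulative share of genes by log2 ratio, for all 9543 genes that passed the filter, 69 other genes of ER to Golgi transport and the 42 coat, receptor and golgin genes. Dashed lines mark 2-fold, and 31.0% of the 42 genes, 17.4% of the 69 and 7.22% of all genes lie beyond the right line.

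Of the COPII genes 14 of 15 passed the filter, with a median log2 ratio of 0.55. Of the 14, 4 were higher (28.6%, against 7.22% of all genes), none was lower (against 4.91%) and 10 were neither. SEC24D, a cargo-binding subunit of the inner layer (chromosome 4, 119643978 to 119759827 in hg19), was at 41.9 CPM in the DMSO library and 290 CPM under CB-5083. This 6.92-fold difference (95% counting interval 6.54 to 7.33) was the largest among the 46 genes and ranked 46 of 9543 in the table. The other SEC24 genes were much closer together. SEC24A was at 77.8 and 125 CPM (1.61-fold, 1.53 to 1.70), SEC24C at 66.2 and 93.5 CPM (1.41-fold), and SEC24B at 94.9 and 115 CPM (1.21-fold, 1.16 to 1.28), of which SEC24B had a log2 ratio of -0.06 under library-total scaling. None of their intervals overlapped that of SEC24D.

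The mix of SEC24 transcripts therefore differed between the libraries. Per kilobase of transcript, SEC24D made up 16.6% of the summed SEC24 level with DMSO and 50.3% with CB-5083. It had the lowest level per length of the 4 with DMSO, at 10.4 CPM per kilobase, and the highest with CB-5083, at 72.0. SEC24B, the highest with DMSO at 25.1 CPM per kilobase and 40.1% of the sum, made up 21.3% with CB-5083. The summed level went from 62.5 to 143 CPM per kilobase.

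SEC23B, the partner of SEC24 in the inner layer, showed a smaller shift of the same kind. It was at 132 CPM in the DMSO library and 351 CPM under CB-5083 (2.67-fold, 2.57 to 2.76), while its paralog SEC23A was at 163 and 240 CPM (1.47-fold, 1.42 to 1.53). The share of SEC23B in the summed SEC23 level per kilobase was 49.0% with DMSO and 63.5% with CB-5083. For the GTPase genes no such shift was seen, with SAR1A at 189 and 233 CPM and 71.5% and 72.2% of the SAR1 level per kilobase. SAR1B was at 84.2 and 100 CPM, and the log2 ratios of SAR1A and SAR1B, 0.30 and 0.25, were -0.04 and -0.09 under library-total scaling. PREB, which loads SAR1 with GTP at the ER, was at 16.8 and 23.9 CPM.

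In the outer layer SEC31A was at 101 CPM in the DMSO library and 250 CPM under CB-5083 (2.49-fold, 2.39 to 2.59), and its log2 ratio, 1.31, became 0.97 under library-total scaling. The span of its row overlaps LOC100499177, a noncoding transcript at 108 and 370 CPM, and the labels do not say whether the counting used strand. SEC31B, a paralog of low level, was at 10.5 and 5.42 CPM (1.93-fold lower), and its log2 ratio of -0.84 was the lowest of the 42 genes that passed the filter. Under library-total scaling SEC31B was past 2-fold lower, at -1.14. SEC13, which pairs with SEC31 and also serves in the nuclear pore, was at 44.2 and 67.2 CPM (1.52-fold, 1.42 to 1.63).

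Exit-site scaffold genes were also unequal. TFG, which gathers COPII vesicles at ER exit sites, was at 159 and 332 CPM (2.09-fold, 2.02 to 2.16), and its log2 ratio, 1.06, became 0.72 under library-total scaling, while the authors' deposited table gives 0.97. SEC16A, the main organiser of exit sites, was at 40.4 and 59.6 CPM (1.47-fold, 1.37 to 1.58). SEC16B was at 0.698 and 0.352 CPM, 23.00 and 10.00 estimated counts, and its interval of 0.214 to 1.10 includes 1.

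**Figure D4:**
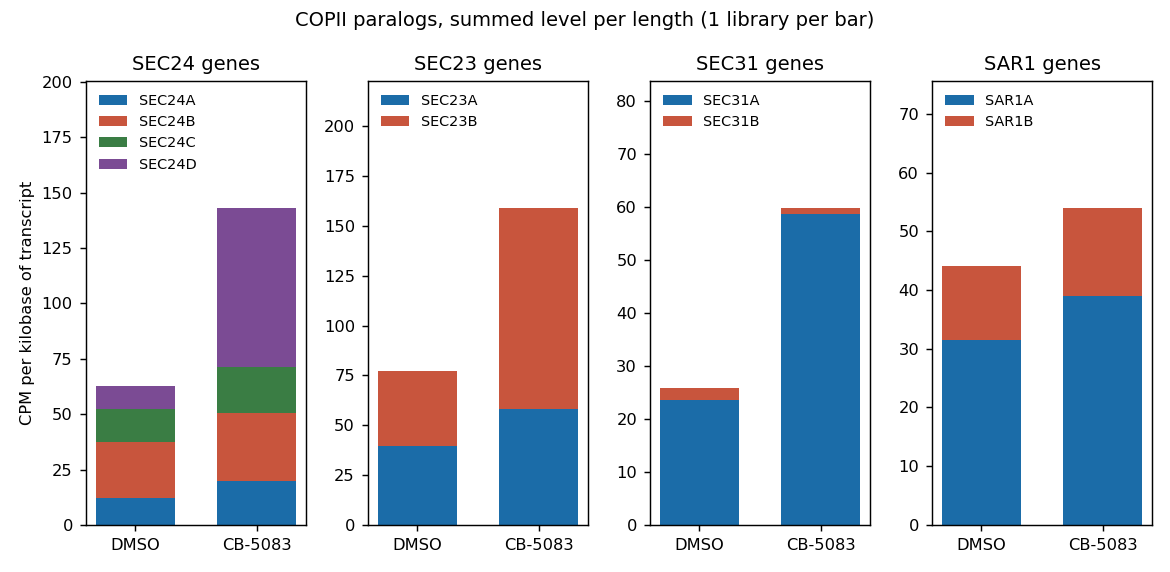
Summed level of the SEC24, SEC23, SEC31 and SAR1 genes in CPM per kilobase of transcript, stacked by gene, with 1 bar per library. The SEC24D part grows from 16.6% to 50.3% of its bar and the SEC23B part from 49.0% to 63.5%, while the SAR1A part stays at 71.5% and 72.2%.

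Among the COPI genes 9 of 11 passed the filter, and the 10 with a mean of at least 1 CPM had a median log2 ratio of 0.79. Of the 9, 4 were higher (44.4%, against 7.22% of all genes), none was lower (against 4.91%) and 5 were neither. ARF4, a GTPase of the early Golgi (chromosome 3, 57557090 to 57583215 in hg19), was at 273 CPM in the DMSO library and 727 CPM under CB-5083 (2.66-fold, 2.60 to 2.73). ARF1, the GTPase that recruits coatomer, differed less, at 169 and 239 CPM (1.41-fold, 1.36 to 1.46). Per kilobase ARF4 stood at 165 and 438 CPM and ARF1 at 84.3 and 119. GBF1, which loads these GTPases with GTP, was at 48.9 and 85.7 CPM (1.75-fold, 1.64 to 1.87).

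The subunits of coatomer, which form 1 complex, did not differ by the same fold. COPB1 (beta) was at 259 and 639 CPM (2.47-fold, 2.41 to 2.53), COPA (alpha) at 166 and 397 CPM (2.40-fold, 2.32 to 2.48) and COPG (gamma, now COPG1) at 80.1 and 183 CPM (2.29-fold, 2.19 to 2.40). All 3 were past 2-fold with TMM and short of it by library totals, where their log2 ratios were 0.96, 0.92 and 0.85. The spans of the COPB1 and COPA rows overlap those of PSMA1, at 370 and 436 CPM, and NCSTN, at 44.4 and 62.0 CPM, with the same limit on strand as for SEC31A. COPB2 (beta prime) was at 251 and 436 CPM (1.74-fold, 1.69 to 1.79) and ARCN1 (delta) at 330 and 526 CPM (1.59-fold, 1.55 to 1.63). COPZ1 (zeta) had the lowest fold of these, at 274 and 360 CPM (1.31-fold, 1.28 to 1.35), and the intervals of COPB1 and COPZ1 did not overlap. COPE (epsilon) was at 3.58 and 4.68 CPM, under the filter, which is 3.14 and 4.10 CPM per kilobase where the other expressed subunits ran from 26.0 (COPG) to 145 (COPZ1) with DMSO. COPZ2, the paralog of COPZ1, had 0 estimated counts with DMSO, which allows up to 0.0910 CPM, and 1 with CB-5083, so no fold is given. COPG2, the paralog of COPG, is counted below with the other transport genes and was at 29.5 and 30.8 CPM (1.04-fold, 0.951 to 1.14).

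Of the cargo receptors 11 of 12 passed the filter. Of the 11, 1 was higher (9.09%, near the 7.22% of all genes), none was lower (against 4.91%) and 10 were neither. The median log2 ratio of all 12, each with a mean of at least 1 CPM, was 0.81. At 1.5-fold 8 of the 11 were higher, against 17.4% of all genes. TMED7, a p24 family receptor (chromosome 5, 114948905 to 114961876 in hg19), was at 352 CPM in the DMSO library and 1058 CPM under CB-5083 (3.01-fold, 2.95 to 3.08). Its row overlaps the readthrough TMED7-TICAM2, at 33.9 and 56.4 CPM, whose reads over the shared exons cannot be told from its own. TMED2, a p24 receptor with the highest level per kilobase of the 46 genes in the DMSO library (222 CPM per kilobase), was at 567 and 1102 CPM (1.94-fold, 1.91 to 1.98).

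Several receptors lay just short of the threshold. LMAN1, the lectin that carries blood coagulation factors out of the ER, was at 227 and 449 CPM (1.97-fold, 1.92 to 2.03), and MCFD2, its partner for that cargo, at 189 and 344 CPM (1.82-fold, 1.76 to 1.88). SURF4, a receptor for soluble cargo, was at 129 and 250 CPM (1.93-fold, 1.86 to 2.01) and TMED9 at 42.2 and 81.3 CPM (1.93-fold, 1.80 to 2.06). Just past the threshold, by contrast, were USO1 and GOLGA5, described below, at 2.06-fold and 2.08-fold, and the intervals of LMAN1, SURF4 and TMED9 overlapped that of GOLGA5 (1.96 to 2.20).

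TMED10 was at 363 and 612 CPM (1.69-fold, 1.65 to 1.73) and TMED5 at 156 and 260 CPM (1.67-fold, 1.62 to 1.74). The p24 genes TMED3, TMED4 and TMED1, at 7.61, 8.91 and 0.906 CPM per kilobase with DMSO, differed least. TMED3 was at 11.2 and 12.3 CPM, TMED4 at 20.7 and 20.9 CPM and TMED1, under the filter, at 1.21 and 1.11 CPM, and the intervals of all 3 included 1. Under library-total scaling the log2 ratios of TMED3 and TMED4 were -0.19 and -0.31, against 0.12 and 0.01. LMAN2, a lectin that cycles between the Golgi and the ER, was at 11.2 and 16.1 CPM (1.45-fold, 1.26 to 1.66).

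All 8 golgins and tethers passed the filter, 4 were higher, none was lower and 4 were neither, with a median log2 ratio of 0.91. GOLGB1 (giantin), a tether anchored in the Golgi membrane, was at 59.8 CPM in the DMSO library and 168 CPM under CB-5083 (2.81-fold, 2.67 to 2.97). GOLGA2 (GM130), the golgin of the cis face, was at 24.5 and 63.6 CPM (2.59-fold, 2.39 to 2.82). USO1 (p115), which binds both of these and tethers incoming vesicles, was at 250 and 514 CPM (2.06-fold), and GOLGA5 (golgin-84), a tether within the stack, at 57.7 and 120 CPM (2.08-fold, 1.96 to 2.20). GOLGA5 and USO1 both had a log2 ratio of 1.04, which was 0.70 under library-total scaling, and the authors' deposited table gives 0.96 and 0.95.

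GOLGA4 and GOLGA1, golgins of the trans face, were among the genes not past 2-fold. GOLGA4 (golgin-245) was at 182 and 314 CPM (1.73-fold, 1.67 to 1.79) and GOLGA1 (golgin-97) at 23.6 and 25.4 CPM (1.08-fold, 0.972 to 1.19), and the log2 ratio of GOLGA1, 0.10, became -0.23 under library-total scaling. GOLGA3 was at 35.4 and 51.4 CPM (1.45-fold, 1.35 to 1.57). GOLGA7, a small partner of a palmitoyltransferase that carries the golgin name, was at 58.5 and 79.9 CPM (1.37-fold, 1.28 to 1.45).

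**Figure D5:**
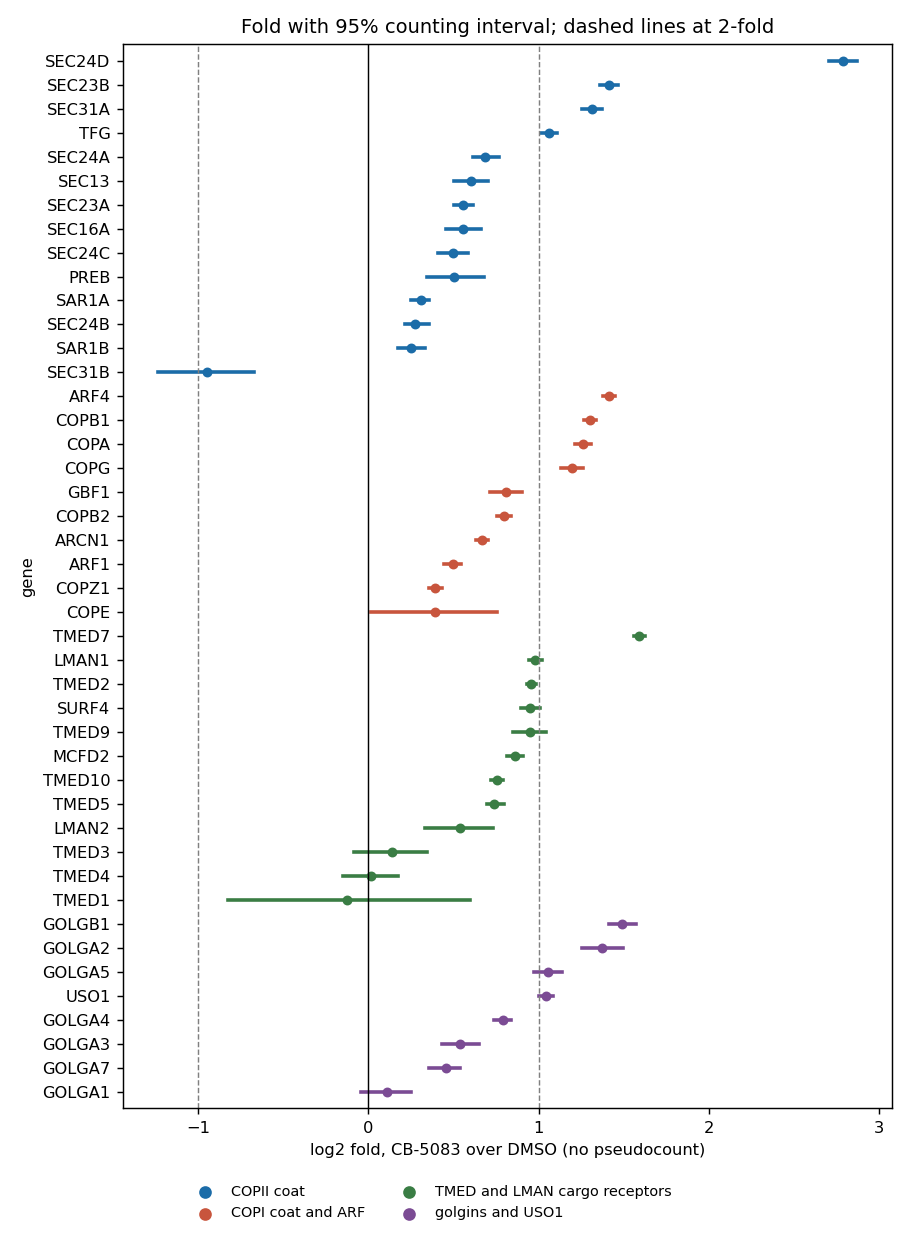
Fold of CB-5083 over DMSO on a log2 axis, without a pseudocount, for the 44 genes with a mean of at least 1 CPM, by class. Bars are 95% counting intervals of 1 library against 1 and dashed lines mark 2-fold. SEC24D stands apart at 6.92-fold. LMAN1, TMED2, SURF4 and TMED9 lie just short of the 2-fold line, and USO1, GOLGA5 and TFG lie just past it.

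Base composition moved with the level of these genes. Over the 42 that passed the filter, the GC content of the transcript and the DMSO level per kilobase had a Spearman rho of -0.44, beside -0.26 over the 9001 such genes of the table with a transcript. GC content and log2 ratio had a rho of -0.28 and, over all genes, -0.15. COPE, TMED1, LMAN2, PREB and TMED3 had the highest GC contents of the 46 genes, from 58.4% (TMED3) to 62.9% (COPE). They were at 0.906 (TMED1) to 7.75 (PREB) CPM per kilobase with DMSO. LMAN2, PREB and TMED3 were not past 2-fold, while COPE and TMED1 were under the filter and could not be called. These genes share 2 libraries, so the correlations are descriptions, and the part of GC content in the levels or ratios was not tested. Transcript length and log2 ratio had a rho of 0.01. The DMSO level per kilobase and the log2 ratio had a rho of 0.33 and, over all genes, 0.16.

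The other genes of ER to Golgi transport were 77 genes that include further receptors, ARF regulators and tethers but no SNARE or Rab genes. Of the 69 that passed the filter, 12 were higher (17.4%, against 7.22% of all genes) and none was lower (against 4.91%). The 74 with a mean of at least 1 CPM had a median log2 ratio of 0.34. CTAGE5, which with MIA3 (TANGO1) helps load collagen at exit sites, was at 51.6 and 161 CPM (3.13-fold, 2.96 to 3.31). BLZF1 (golgin-45), a partner of the stacking protein GORASP2, was at 51.8 and 148 CPM (2.85-fold, 2.70 to 3.02) and GOLT1B, a Golgi membrane protein, at 113 and 298 CPM (2.65-fold, 2.55 to 2.75). ARFGAP3, which stops ARF1 at the Golgi by GTP hydrolysis, was at 24.3 and 61.9 CPM (2.54-fold, 2.34 to 2.77). SCFD1, a regulator of Golgi SNAREs, TMF1, a golgin, and ACBD3, a Golgi scaffold, were 2.39-fold, 2.37-fold and 2.34-fold higher, and TRAPPC6B, a subunit of the TRAPP tether, 2.18-fold.

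KDELR2, the gene of that list with the highest mean CPM and a receptor that returns ER proteins through COPI, was at 263 and 335 CPM (1.27-fold, 1.24 to 1.31). By role, 2 of 7 COPII helpers, 3 of 15 further membrane proteins, 1 of 10 ARF regulators and 6 of 37 tethers were higher, against 7.22% of all genes, a share near that of the ARF regulators (10.0%). Under library-total scaling 3 of the 69 were higher (4.35%, near the 3.86% of all genes) and 4 were lower, against 994 of all 9623 genes.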

How the data were processed

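RNA sequencing of HCT116 cells was made from 1 library with DMSO and 1 with CB-5083. RSEM 1.2.0 and the build hg19 come from the submitters' processing notes, and no aligner is named in the sources used here. Values deposited as counts, per the file headers, are a signal: estimated counts scaled by the authors so that the 75th percentile of all genes was 999.73 (DMSO) and 999.89 (CB-5083). The table also holds the authors' log2 ratio, which equals that of the deposited values to within 2.4e-09.

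Dividing by the commonest step of low values, 1.07904 and 1.17522, gave back estimated counts, of which 76.6% and 77.1% of those up to 5 were whole within 0.02. CPM used TMM factors of 1.1258 and 0.8883 (trims of 30% and 5%) and a pseudocount of 1 CPM. Intervals are 95% exact Clopper-Pearson intervals of the fold without pseudocount, on rounded estimated counts. A count of 0 allows up to 3 counts, or 0.0910 CPM (DMSO) and 0.106 CPM (CB-5083). Intervals and these limits cover counting error only. Levels per kilobase used the principal transcript of GENCODE 29, and promoters came from RefSeq (GRCh38.p14). Row coordinates are hg19, counted from 1.

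The genes and lists were chosen with earlier results of these data known. All 46 genes are accounted for, and of the other transport genes the 8 with the largest ratio past 2-fold and the most expressed are named. COPG2 is also named, beside its paralog COPG. On simulated libraries for CB-5083 against DMSO with 21115 genes and counting error only, 100 of 100 genes altered 4-fold and 0 of 100 altered 1.5-fold were called, and 0 of 9353 unaltered genes. Other scalings, pseudocounts, filters and fold thresholds were tried. Computations ran in Python 3.11.15 with scipy 1.17.1, numpy 2.4.6, matplotlib 3.10.9 and pandas 2.3.3.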

Additional observations from a re-analysis of the deposited data

How the results depend on the processing

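With library totals the genes past 2-fold numbered 6 higher (COPII 2, COPI 1, golgins 2) and 1 lower, with a median log2 ratio of 0.41. The other transport genes then gave 3 higher and 4 lower, and all genes 371 higher and 994 lower with a median of -0.28. The 7 genes lost were COPA, COPB1, COPG, GOLGA5, SEC31A, TFG and USO1. Upper quartile scaling, the authors' own, left 10 higher (golgins 2), which is 23.8% against 6.11% of all genes. The genes lost were GOLGA5, TFG and USO1. This scaling gave medians of 0.66 for the coat, receptor and golgin genes and -0.05 for all genes, and 2 other transport genes lower. Median-of-ratios scaling left the same 13 higher (31.0%, against 7.45% of all genes). A threshold of 1.5-fold gave 26 higher (COPI 7, cargo receptors 8) and 1 lower, 20 and 6 of the other transport genes, and 1660 and 1195 of all genes. A threshold of 3-fold left 2, SEC24D and TMED7 (COPII 1, COPI 0, golgins 0), with 1 other transport gene higher and 245 higher and 106 lower of all genes. Pseudocounts of 0.25 and 5 CPM left 13 and 12 higher (31.0% and 28.6%, against 7.75% and 5.43% of all genes). The first gave 1 other transport gene lower and the second 198 lower of all genes. A filter of 20 CPM left 13 of 39 higher and 179 lower of all genes, and a mean of at least 10 CPM gave a median of 0.15 for all genes. The cause of each shift was not tested, beyond the stricter or looser threshold itself. With only the most upstream promoter window of each gene, a choice made after seeing the data, 10 of 39 genes held TGACGTGG, against 1.04% of the genes past the filter. No replicate could be left out. No paired analysis was possible because each treatment was 1 library.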
